A study of Homo sapiens with 8 samples.

Results

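Replication-dependent histone genes code for the core histones H2A, H2B, H3 and H4 and the linker histones H1 that package newly copied DNA. They were taken here as every gene of the deposited all-read table whose symbol begins with HIST1H, HIST2H, HIST3H or HIST4H, which gave 72 of 27556 genes: 6 of class H1, 17 of H2A, 20 of H2B, 14 of H3 and 15 of H4. The symbol rule also takes in genes known for testis (HIST1H1T, HIST1H2AA, HIST1H2BA, HIST3H3) and the pseudogenes HIST2H2BC and HIST2H2BA, so that not every one of the 72 is expected in dividing blood cells. NALM6 is an established human precursor B-cell leukaemia line. It carried a doxycycline-inducible HMGN1, a nucleosome-binding chromatin protein, either wild type or with the S20,24E substitutions, described in the labels as deficient in nucleosome binding. The groups were the wild-type line with vehicle (vehicle, 3 libraries, A to C), the wild-type line with 100 ng/ml doxycycline (induced wild type, 3 libraries, A to C) and the mutant line with the same doxycycline (induced mutant, 2 libraries, A and B). All had 6 h of doxycycline or vehicle and 100 µM 4-thiouridine for the last 5 h. Libraries were made from 4 µg of RNA with a poly(A)-selecting stranded mRNA kit, and new RNA was read in SLAM-seq as T-to-C conversions. Vehicle-treated cells of the mutant line and cells without 4-thiouridine were not analysed here, so that line and mutation cannot be told apart and the conversion background is unknown.

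Messages of these genes are the known exception among animal mRNAs: most end at a short stem-loop instead of a poly(A) tail. The stem-loop binding protein SLBP and the U7 small nuclear ribonucleoprotein direct the cut after it, and the messages are made in S phase and degraded quickly when DNA synthesis stops. Some of the genes also make a longer message with a poly(A) tail, above all in cells that leave the cell cycle. A poly(A)-selected library is thus a narrow window on this family: it sees polyadenylated forms and whatever tailless RNA passes the selection.

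The letters behind this exception are shown first, as a description of the gene models. Their bearing on which genes had reads was not tested. A search of the GENCODE 29 transcript models, on the sense strand, for GG, 2 bases of any kind, CTTTT, 1 of any kind, AG, 2 of any kind and CC found the stem-loop in models of 32 of the 72 genes and in 80 of 58721 genes of that annotation (0.136%). For 43 of the 72 genes the models hold the coding length alone, and nothing is drawn from the 40 genes whose models lack the motif. The 5 forms of the 16 bases are each given below by a gene, with the stem-loop in capitals and 5 flanking bases on each side.
HIST1H3H: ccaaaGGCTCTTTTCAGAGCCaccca
HIST1H2BD: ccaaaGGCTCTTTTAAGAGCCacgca
HIST1H2AG: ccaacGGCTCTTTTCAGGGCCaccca
HIST1H4E: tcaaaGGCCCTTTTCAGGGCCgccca
HIST2H4A: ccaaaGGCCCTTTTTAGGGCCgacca
The form of HIST1H3H was found in 17 genes of classes H2A, H2B and H3, that of HIST1H2BD in 5 genes of H2B and H3, and that of HIST1H2AG in 2 genes of H2A and H2B. The H4 genes had their own forms, that of HIST1H4E in 5 genes and that of HIST2H4A in 3. In 23 of the 32 genes the model ran on for more than 100 bases past the stem-loop, and in 19 it held the poly(A) signal letters AATAAA after it. The model of HIST1H3H ran on for 769 bases and that of HIST1H2AC for 1128 bases.

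Promoter letters divided the classes as well. RefSeq promoter windows (GRCh38.p14, 250 bases before to 50 bases after the start) matched 65 of the 72 genes, and were searched on both strands. The octamer ATTTGCAT, known to bind POU2F1, was in 11 of 16 H2A and 14 of 18 H2B windows, in 0 of 6 H1, 0 of 12 H3 and 0 of 13 H4 windows, and in 1.82% of all 27305 promoters. The letters AAACACA, the H1 box, were in 6 of 6 H1 windows against 5.78% of all. They were also in 1 of 16 H2A and 2 of 12 H3 windows, and in 0 of 18 H2B and 0 of 13 H4 windows. CCAAT was in every H1, H2A, H2B and H3 window and in 3 of 13 H4 windows, against 35.6% of all, and TATAAA in 44 of 65 against 12.1%. The 250 bases before the start are shown for the 2 genes with the most reads in these libraries, with the H1 box and CCAAT (either strand) in capitals for HIST1H1C, and the octamer and CCAAT (either strand) in capitals for HIST1H2BK. The HIST1H1C stretch is chr6:26056471-26056720 and the HIST1H2BK stretch chr6:27146856-27147105, both in GRCh38.p14 on the minus strand.
HIST1H1C: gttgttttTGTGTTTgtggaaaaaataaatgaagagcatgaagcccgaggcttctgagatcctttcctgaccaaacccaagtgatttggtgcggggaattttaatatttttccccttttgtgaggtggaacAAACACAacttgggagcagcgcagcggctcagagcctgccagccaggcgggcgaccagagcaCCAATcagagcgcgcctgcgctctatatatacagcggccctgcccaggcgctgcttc
HIST1H2BK: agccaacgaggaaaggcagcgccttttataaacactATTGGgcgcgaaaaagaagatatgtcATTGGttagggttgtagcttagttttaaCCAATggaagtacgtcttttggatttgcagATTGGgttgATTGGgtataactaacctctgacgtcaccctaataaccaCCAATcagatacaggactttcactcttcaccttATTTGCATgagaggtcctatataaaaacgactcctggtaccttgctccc
A match of letters is a description of the window, not a bound site.

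The libraries held 7.99 to 17.7 M reads by the step between their values, of which 3.45 to 7.91 M fell on the 1 transcript record kept per gene. Other records of a gene were left out of that number. All 10 precursor B-cell markers had reads, with a summed CPM (reads per 1 M reads of the library) of 1531 to 1813. The T-cell markers summed to at most 0.145 CPM, with CD3D, CD2 and CD7 at 0. HMGN1, the induced gene, stood at 191, 153 and 145 CPM with vehicle, at 252, 217 and 317 CPM in induced wild type, and at 223 and 200 CPM in the induced mutant, so that every induced library was above every vehicle library. Reads of the resident and the added HMGN1 are counted together. Induced mutant A stood apart from the other 7 libraries in RNAs that carry no poly(A) tail. RPPH1, RMRP, RN7SK, RN7SL1, RN7SL2, TERC and all genes named RNU or SCARNA, 58 genes in all and a set chosen after the data were seen, summed to 133 CPM there and to 15.7 to 35.4 CPM in the others. Of these 58 genes, 45 had a read and 21 (46.7%) were highest in induced mutant A, against 10.7% of all genes with a read. Among the 7 with a mean of at least 1 CPM, 5 were highest there. These were RPPH1, RMRP, RN7SK, RN7SL1 and RN7SL2, at 10.0 to 31.7 CPM in that library. RPPH1 was 7.85 times, RMRP 9.69 times and RN7SK 7.11 times its mean in the other libraries. SCARNA12 and RNU86 did not follow, at 1.05 and 0.885 times. The sums, the list medians and the differences of HIST1H1B and HIST1H1E are therefore given with and without that library, as are the list genes named with a difference for the induced mutant, and the part of tailless RNA in it was not tested.

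Histone genes gave few reads in this poly(A)-selected RNA. All 72 together had 4116 reads over the 8 libraries, 0.00969% of the reads on the records kept, 1 per gene. A read was found in at least 1 library for 56 genes and in every library for 34. There were 15 genes with 20 or more reads in some library and only HIST1H1C and HIST1H2BK with 20 or more in all 8. The 16 genes without a read lie under a limit of 0.0312 CPM over all libraries together, the level of 3 reads, which covers counting error only. They were HIST1H1A, HIST1H2AA, HIST1H2BA, HIST1H2BH, HIST1H4D, HIST1H4F, HIST1H4G, HIST1H4J, all 3 HIST3 genes and 5 of the 13 HIST2 genes. These 5 (HIST2H2AA3, HIST2H3A, HIST2H3C, HIST2H4A, HIST2H4B) have a near-identical copy in the genome, with under 10% of their 50-base stretches unique among GENCODE 29 transcripts, so that reads of a copy may not have been counted. Under 10% of the stretches were unique for 4 of the 56 genes with reads as well. For HIST1H3D and HIST1H2AD among them, an annotated gene, AL031777.3, overlaps the locus on the same strand, so that shared stretches there need not mean a copy elsewhere, and reads of the overlapping genes cannot be told apart. The only HIST4 gene, HIST4H4, had 5 reads.

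HIST1H1C, which codes for the linker histone H1.2, led the family. It stood at 8.77, 6.25 and 7.83 CPM with vehicle, 7.30, 6.26 and 5.87 CPM in induced wild type, and 8.39 and 7.93 CPM in the induced mutant. Its 3 groups lay close together, with vehicle spanning most of the range. HIST1H2BK, an H2B gene, stood at 4.50, 5.90 and 6.82 CPM with vehicle, 6.81, 4.51 and 5.22 CPM in induced wild type, and 6.75 and 6.98 CPM in the induced mutant. Here too the vehicle and induced wild-type libraries interleaved. A second, shorter record of the HIST1H2BK gene, which carries no symbol in the table, had 291 reads against 586 and was left out. Outside induced mutant A these 2 genes took 28.2% to 38.7% of the family's summed CPM, and 20.8% in induced mutant A.

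The next level was held by 2 further linker histones and a few core histone genes, all with a mean of 1 to 2.3 CPM. HIST1H1B, coding for H1.5, stood at 2.25, 1.22 and 1.80 CPM with vehicle, at 2.09, 2.004 and 2.10 CPM in induced wild type, and at 4.53 and 2.33 CPM in the induced mutant. HIST1H1E, coding for H1.4, stood at 1.46, 1.04 and 1.24 CPM with vehicle, at 1.53, 1.38 and 1.16 CPM in induced wild type, and at 3.38 and 2.07 CPM in the induced mutant. In both genes induced mutant A was the highest library and induced mutant B the second highest. HIST2H2AC, an H2A gene, stood at 2.14, 2.08 and 1.69 CPM with vehicle, at 1.46, 1.63 and 1.23 CPM in induced wild type, and at 1.74 and 2.33 CPM in the induced mutant. HIST2H2BC stood at 1.46, 1.997 and 1.92 CPM with vehicle, at 1.88, 1.63 and 2.10 CPM in induced wild type, and at 0.579 and 1.81 CPM in the induced mutant. It was the gene that ran most clearly against the rest, with induced mutant A the lowest library, and its locus overlaps HIST2H2BD on the other strand. HIST1H3H, HIST1H2AC, HIST1H2BD and HIST1H3D had means of 1.42, 1.20, 1.12 and 1.09 CPM, and HIST1H3D reached a mean of 1 only through induced mutant A. The plot of CPM by library shows these 10 genes.

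**Figure D1:**
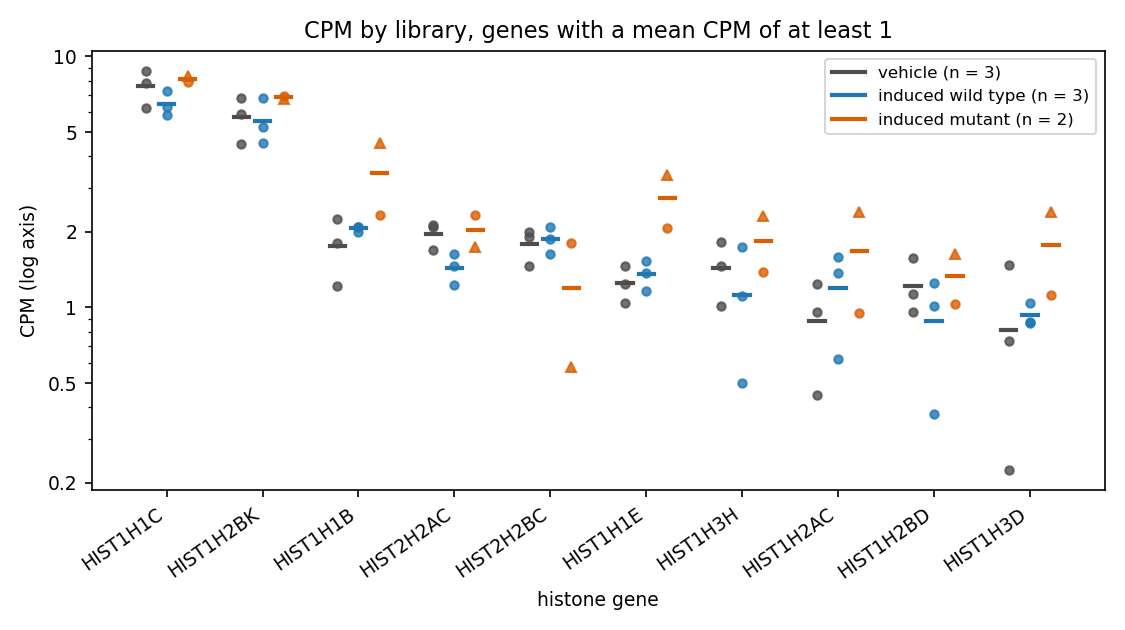
CPM (log axis) in each library of the 10 histone genes with a mean CPM of at least 1, with bars at the group means and triangles for induced mutant A. HIST1H1C and HIST1H2BK lie above the other 8 genes, and induced mutant A is the highest library of HIST1H1B (4.53 CPM) and HIST1H1E (3.38 CPM) and the lowest of HIST2H2BC (0.579 CPM).

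Per kilobase of RefSeq gene span, HIST1H1C had a level of 10.0 CPM, followed by HIST2H2AC at 3.62, HIST1H3H at 2.92, HIST1H1B and HIST2H2BC at 2.87 each, HIST1H2AC at 2.31 and HIST1H1E at 2.11 CPM. The value of HIST1H2BK, 0.693 CPM, rests on a span of 8.57 kb that counts introns, and is not comparable with these. Some genes without introns were listed here as replication-independent histone variants. Of these, H2AFX, coding for H2A.X, had 57.0 CPM per kilobase, H1FX, coding for H1.10, 52.8, H3F3C 29.7 and H1F0, coding for H1.0, 0.132.

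The 70 histone genes other than HIST1H1C and HIST1H2BK were highest, as a sum, in induced mutant A. In RNA of whole cultures, more cells in S phase and more histone RNA per cell cannot be told apart. The tailless RNA set above was at 5.28 times its mean in the other 7 libraries in induced mutant A. Its part in the histone sum was not tested. The summed CPM of the 70 genes was 57.8 in induced mutant A and 21.03 to 28.3 in the other 7 libraries, 2.26 times the mean of those. By group it was 23.6 ± 2.43 CPM (SD, n = 3) with vehicle, 26.9 ± 1.78 CPM (SD, n = 3) in induced wild type and 42.6 CPM as the mean of the 2 induced mutant libraries. The ratio of induced mutant to vehicle was 1.80 with both mutant libraries and 1.16 without induced mutant A. Against induced wild type it was 1.58 and, without induced mutant A, 1.02. The ratio of induced wild type to vehicle was 1.14. All 5 classes were highest in induced mutant A, at 2.27 times the mean of the other libraries for H1, 2.12 times for H2A, 1.80 times for H2B, 2.62 times for H3 and 3.22 times for H4. The plot of class sums gives the libraries side by side.

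**Figure D2:**
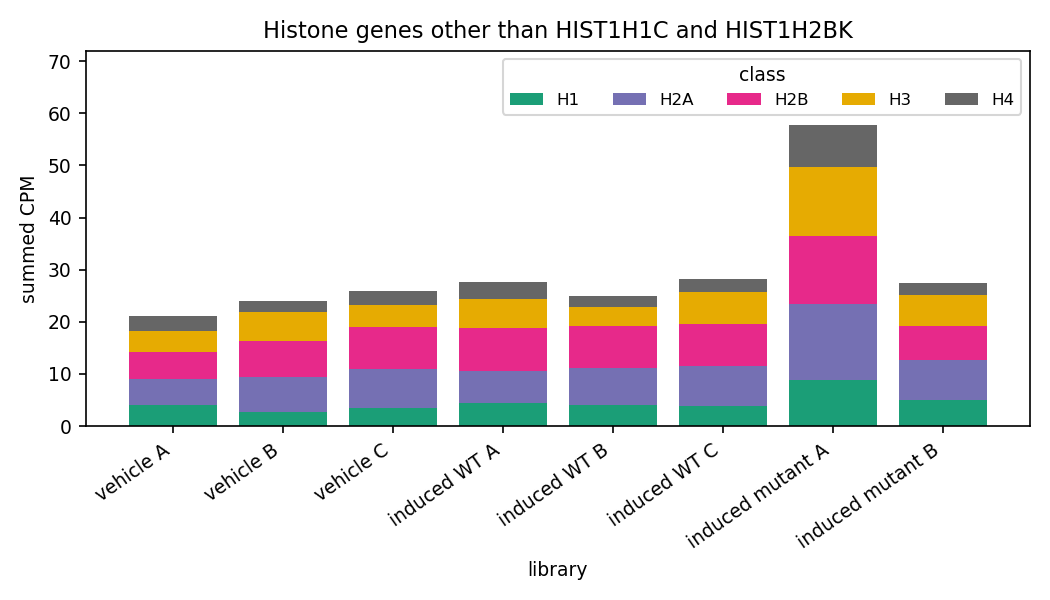
Summed CPM per library of the 70 histone genes other than HIST1H1C and HIST1H2BK, stacked by class. Induced mutant A reaches 57.8 CPM, and the other 7 libraries lie between 21.03 and 28.3 CPM.

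The same library was the highest for 41 of the 56 detected histone genes (73.2%). Among all genes with a read it was the highest for 10.7%. To keep that library out of the choice of genes, a minimum was then set on the mean of the other 7 alone. Of the 49 histone genes with at least 0.1 CPM in that mean, 45 were above it in induced mutant A and 33 were more than 2 times above it, against 4.36% of all genes with the same minimum. Of the 40 histone genes between 0.1 and 1 CPM in that mean, 30 were more than 2 times above it, against 13.7% of all genes in that range, and 34 were highest in induced mutant A, against 16.3%. The median ratio was 2.49 over the 49 histone genes and 0.987 over all genes with the same minimum. HIST1H2BB had the highest ratio, 6.82, from 10 reads in induced mutant A and 0 to 4 in the others. HIST1H4C had 24 reads there and 2 to 8 elsewhere, a ratio of 5.44, and HIST1H3B had 26 reads there and 2 to 13 elsewhere, a ratio of 4.27. The lowest ratio was that of HIST2H2BC, 0.317, followed by HIST1H3E at 0.778, HIST1H4A at 0.783 and HIST2H2AC at 0.968. HIST1H1C (1.17) and HIST1H2BK (1.16) were near the other libraries. The 20 S phase genes listed, PCNA among them, summed to 1830 CPM in induced mutant A and to 1557 to 1906 CPM in the others.

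**Figure D3:**
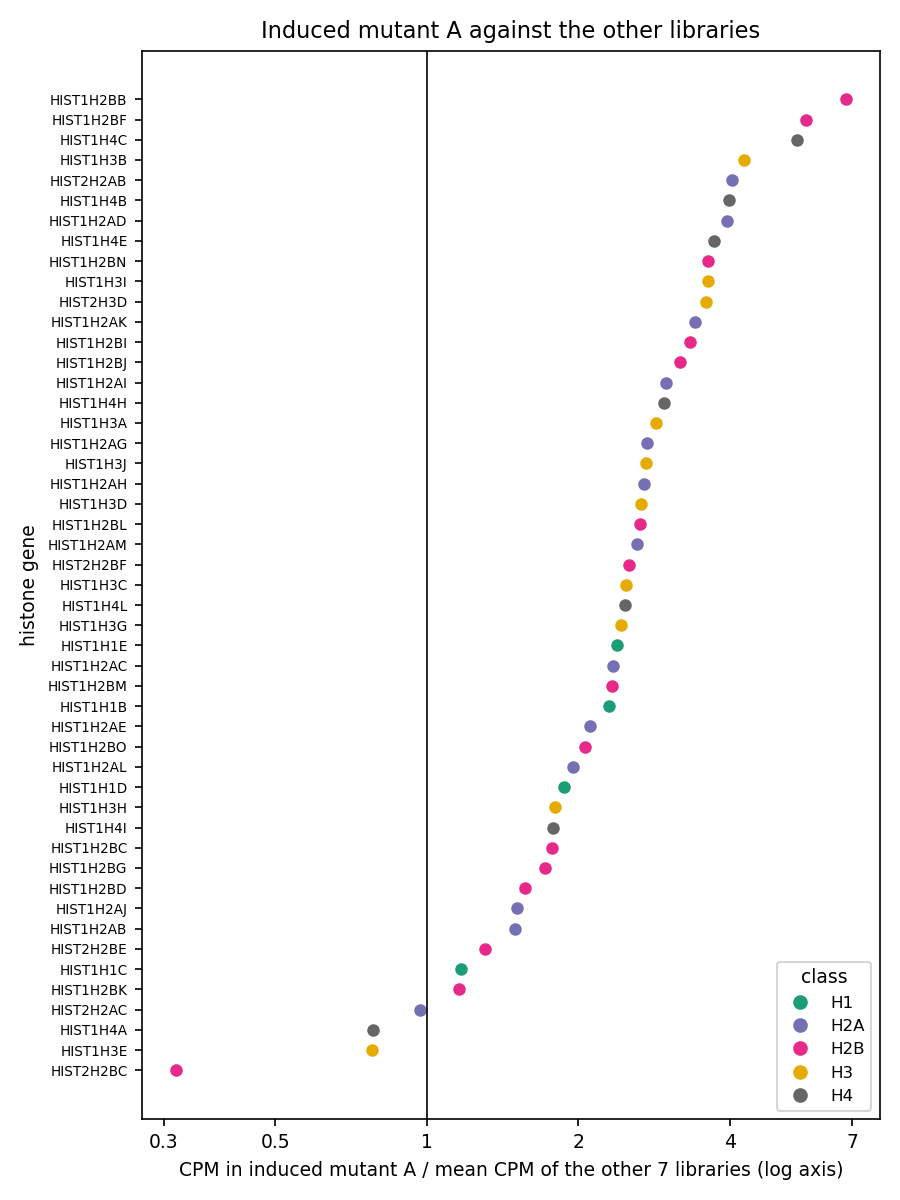
CPM in induced mutant A divided by the mean CPM of the other 7 libraries (log axis) for the 49 histone genes with a mean of at least 0.1 CPM in those 7, coloured by class, with a line at 1. Of the 49 genes, 45 lie above 1, with a median of 2.49, and HIST2H2BC is lowest at 0.317.

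The comparisons between groups were made with limma on log2(CPM + 1) over the 12540 genes with a mean CPM of at least 1, of which 10 were histone genes, with Benjamini-Hochberg adjustment over all genes. Fold changes on this scale understate the change of low genes. In each of the 3 comparisons 0 of the 10 passed at an adjusted p below 0.05. With all genes counted, 0% were called in induced wild type against vehicle, 0.0319% (4 genes) in induced mutant against vehicle and 0.0319% (4 genes) in induced mutant against induced wild type. edgeR and DESeq2 on the recovered reads called 0 of the 10 in each comparison too. In induced mutant against vehicle, edgeR gave an unadjusted p below 0.05 for 3 of the 10 (HIST1H1B, HIST1H1E and HIST1H3D), against 3.44% of all genes in that direction, and DESeq2 for HIST1H1B and HIST1H1E, against 2.88%. In induced mutant against induced wild type both tools gave it for HIST1H1B and HIST1H1E, against 1.08% of all genes in that direction with edgeR and 0.774% with DESeq2. HIST1H3D reached the minimum only through induced mutant A (0.906 CPM without it), so that it had to lie high there. The counts and medians of the induced mutant are therefore given over the other 9, with limma refitted on the 12526 genes with a mean of at least 1 CPM outside that library.

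Induced wild type against vehicle compares doxycycline with vehicle within the same line. No library had doxycycline without an added HMGN1, so that the drug and the added HMGN1 cannot be told apart. The median log2 difference of the 10 histone genes was -0.00 against 0.09 over all genes, with 5 of 10 above 0. The largest positive differences were those of HIST1H2AC (0.22, SE 0.28), HIST1H1B (0.17, SE 0.23) and HIST1H3D (0.15, SE 0.28). The largest negative ones were those of HIST2H2AC (-0.28, SE 0.17), HIST1H2BD (-0.26, SE 0.23) and HIST1H3H (-0.23, SE 0.26). An unadjusted p below 0.05 was reached by 0 of the 10 with limma, edgeR and DESeq2, against 1.16% of all genes with limma. In HIST2H2AC alone the groups did not overlap, with induced wild type lower. That was so for 1.52% of all genes.

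Induced mutant against vehicle compares different lines. The median log2 difference of the 9 was 0.22 against -0.05 over all genes, and 8 of 9 were above 0. HIST1H1E differed by 0.71 (SE 0.21, limma unadjusted p = 0.00877, adjusted p = 0.791) and HIST1H1B by 0.66 (SE 0.26, unadjusted p = 0.0313, adjusted p = 1.00). These were the 2 of 9 with an unadjusted p below 0.05, against 1.18% of all genes in that direction. They were also the 2 whose induced mutant libraries lay above all vehicle libraries, against 4.52% of all genes. HIST1H3D, tested through induced mutant A alone, had 0.63 (SE 0.31). On the negative side stood HIST2H2BC (-0.40, SE 0.26), and the smallest positive differences were those of HIST2H2AC (0.03, SE 0.19) and HIST1H2BD (0.07, SE 0.26). Without induced mutant A the differences of HIST1H1E and HIST1H1B were 0.45 and 0.29. The median over the 9 histone genes then tested was 0.07, against -0.10 over all genes.

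Induced mutant against induced wild type shares the mutant libraries with the comparison above. Its median over the 9 was 0.31 against -0.12 over all genes, with 8 of 9 above 0. With the library medians set equal, the median over all genes moved from -0.12 to 0.02. For histone genes this setting was run only over all 10, HIST1H3D included, and their median moved from 0.32 to 0.46. HIST1H1E differed by 0.64 (SE 0.21, limma unadjusted p = 0.0148, adjusted p = 1.00), HIST1H1B by 0.49 (SE 0.26) and HIST1H3D, again through induced mutant A alone, by 0.48 (SE 0.31). HIST2H2BC was the only negative one, at -0.44 (SE 0.26), and the smallest positive differences were 0.26 for HIST1H2AC (SE 0.32) and 0.29 for HIST1H2BK (SE 0.23). The mutant libraries lay above all induced wild-type libraries for 4 of 9, namely HIST1H1B, HIST1H1C, HIST1H1E and HIST2H2AC, against 1.76% of all genes. HIST1H1E was the 1 gene of 9 with an unadjusted p below 0.05, against 0.247% of all genes in that direction. Without induced mutant A, HIST1H1E differed by 0.38 and HIST1H1B by 0.12. The median was then 0.21 over 9 histone genes, against -0.20 over all genes.

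Conversion tells how much of an RNA was made during the 5 h of labelling. It is given as the percentage of bases converted, averaged over genes with reads as weights. The 70 histone genes other than HIST1H1C and HIST1H2BK, pooled, had a conversion of 6.89%, 7.40% and 8.93% with vehicle, 10.1%, 8.25% and 9.24% in induced wild type, and 8.91% and 7.41% in the induced mutant. All genes pooled had 2.64% to 5.20%. The histone value was the higher in 8 of 8 libraries, by 1.78 to 2.61 times. It was also above the median gene with 20 or more reads (4.92% to 7.36%) in 8 of 8 libraries, and above the pooled S phase genes (4.03% to 6.56%) and the pooled replication-independent histone variants (3.01% to 5.35%) in 8 of 8. Without those 2 genes each of the classes H1, H2A, H2B, H3 and H4 was above all genes pooled in 8 of 8 libraries. With them, H1 had a median of 7.88% and was above in 8 of 8, and H2B had 5.32% and was above in 7 of 8. Against the higher value of the median gene the classes did not all hold, also without those 2 genes. In vehicle B, H2B had 4.89% and H4 4.77% against 5.92%, and in vehicle C, H2A had 6.69% against 6.77%. Induced mutant A, with the most histone reads, had a pooled histone conversion within the range of the others. By class, without those 2 genes, H2B was above the others there, at 9.66% against 4.89% to 9.25%. The remaining classes were within their range. H1 had 9.79% and 7.69% in induced mutant A and B, and 11.2% to 15.2% elsewhere, from 30 to 92 reads per library, and this was not tested. Tailless RNAs of the set above had a lower conversion in induced mutant A, 1.33% against 1.62% to 3.75% in the others.

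**Figure D4:**
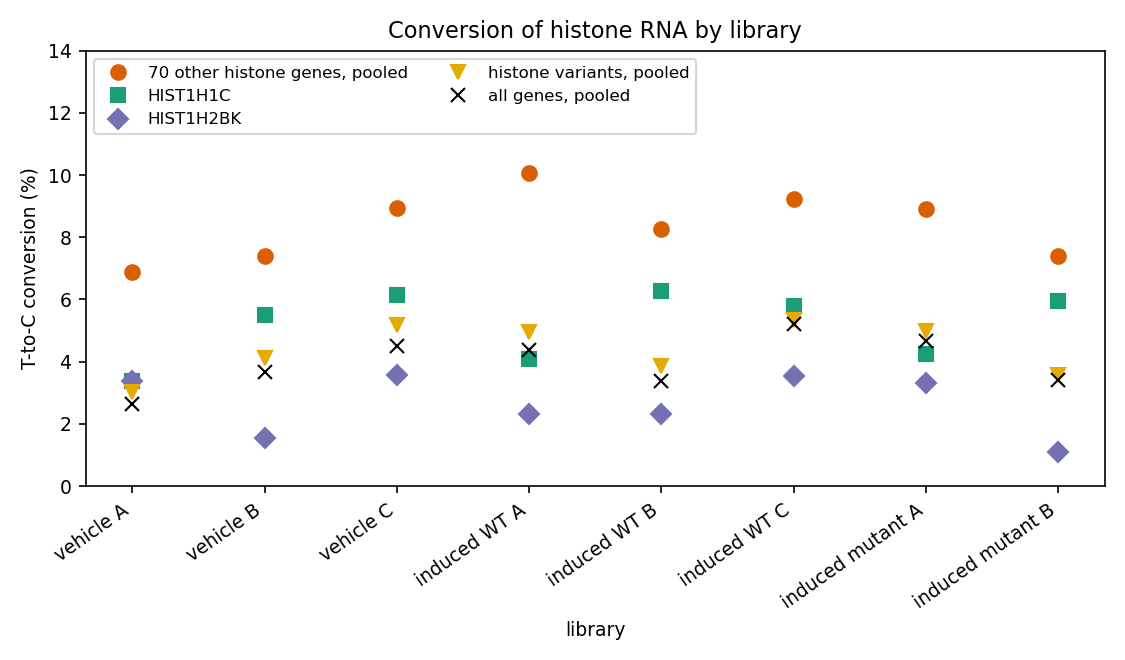
T-to-C conversion in percent in each library for the 70 other histone genes pooled, HIST1H1C, HIST1H2BK, the replication-independent histone variants pooled and all genes pooled. The pooled 70 genes lie at 6.89% to 10.1%, above all genes in each library, and HIST1H2BK lies below HIST1H1C in each library.

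HIST1H1C and HIST1H2BK had a lower conversion than the pool of the other 70 in each library. HIST1H1C had 3.39%, 5.49% and 6.13% with vehicle, 4.10%, 6.28% and 5.78% in induced wild type, and 4.26% and 5.94% in the induced mutant, from 50 to 139 reads per library. It was above the library's median gene in 2 of 8 libraries. HIST1H2BK had 3.37%, 1.53% and 3.58% with vehicle, 2.32%, 2.31% and 3.55% in induced wild type, and 3.30% and 1.09% in the induced mutant, from 36 to 121 reads. It was below the median gene in all 8 libraries and below HIST1H1C in all 8. Its percentile among genes with 20 or more reads was 6.6 to 30.4. Of the 50-base stretches of HIST1H2BK 25.9% were unique among GENCODE 29 transcripts, against 100% for HIST1H1C. What this does to its reads and conversion was not tested. The models of both genes in GENCODE 29 hold the coding length alone, so that their stem-loop and tail signals could not be printed.

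HIST1H1B and HIST1H1E lay at the other end. HIST1H1B had 20 or more reads in 6 libraries, with a conversion of 16.1% and 12.1% in vehicle A and C, 12.4% and 13.3% in induced wild type A and C, and 10.0% and 7.24% in induced mutant A and B. It was above the library median in 6 of 6, at a median percentile of 98.5. HIST1H1E had 20 or more reads in 4 libraries, at 10.5% in vehicle C, 16.7% in induced wild type A, and 11.4% and 9.17% in induced mutant A and B. It too was above the median in each of them. HIST1H3H had 8.37% and 15.9% in vehicle B and C, 8.57% in induced wild type C and 4.96% in induced mutant A. HIST2H2AC was low and scattered, with 6.99% and 0.800% in vehicle B and C, 5.56% in induced wild type A and 4.17% in induced mutant B. In all, 15 histone genes gave 49 values from 20 or more reads in a library, 29 of them above that library's median, and 6 genes gave a value in induced mutant A alone. Outside HIST1H1C and HIST1H2BK these values rest on 20 to 47 reads each, so that their counting error is large, and they were not compared between groups.

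Pooling reads over libraries, which weights the deeper ones more, 10 histone genes had 100 or more reads. HIST1H1E had 11.9%, HIST1H1B 11.7%, HIST1H3D 10.6%, HIST1H2AC 9.83% and HIST1H3H 8.85%. They were followed by HIST2H2BC at 7.76%, HIST1H1C at 5.17%, HIST1H2BD at 4.78%, HIST2H2AC at 3.64% and HIST1H2BK at 2.66%. Over the 12531 genes with as many reads the median was 6.59% and the range from the 5th to the 95th percentile 0.879% to 10.2%. Thus 3 of 10 histone genes were above that 95th percentile and 6 of 10 above the median. The deposited table of converted-read FPKM, with 10032 rows, held 0 rows of the 72 genes and 9 rows of replication-independent histone variants.

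Between groups, conversion could be tested for HIST1H1C and HIST1H2BK, with limma on log2(percent + 0.1) over the 9683 genes with 20 or more reads in every library, each library's median set equal. Neither passed in any comparison, against 0% of all genes called in each. Unadjusted p-values below 0.05 were reached by 0 of the 2, against 4.18% of all genes in induced wild type against vehicle, 7.29% in induced mutant against vehicle and 4.94% between the induced groups. HIST1H1C differed by -0.02 (SE 0.28), -0.02 (SE 0.31) and 0.00 (SE 0.31) in these comparisons, in that order. HIST1H2BK differed by -0.13 (SE 0.39), -0.52 (SE 0.44) and -0.38 (SE 0.44). In induced mutant against vehicle single libraries set these values: HIST1H2BK was at -1.11 without induced mutant A and at 0.075 without induced mutant B, and HIST1H1C at 0.38 and -0.41. Between the induced groups HIST1H2BK was at -0.98 and 0.21, and HIST1H1C at 0.40 and -0.40.

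The factors that make, process and degrade histone messages were looked at in lists of their own. In the 6 comparisons of all reads and conversion limma called 0 of them. An unadjusted p below 0.05 came up 1 time for transcription (11 genes tested in all reads and 10 in conversion). It came up 2 times each for 3′ end processing (27 and 25), export and decay (29 and 27) and poly(A) (11 and 10). For histone variants (9 and 9) it came up 1 time. Over all genes it was reached in all reads by 146 of 12540 in induced wild type against vehicle. In induced mutant against vehicle it was reached by 451 and between the induced groups by 357. In conversion it was reached by 405, 706 and 478 of 9683, in the same order. For transcription and the histone locus body, 11 of 11 genes were tested in all reads. Of these, NPAT, the coactivator of histone genes in that body, had 2.77 ± 1.61 CPM (SD, n = 3) with vehicle, 4.31 ± 3.44 CPM (SD, n = 3) in induced wild type, and 6.75 and 3.71 CPM in the induced mutant, and its groups overlapped. CCNE1, the cyclin E gene, had a conversion of 7.26%, 4.50% and 7.48% in induced wild type and 8.76% and 8.66% in the induced mutant (limma difference 0.55, unadjusted p = 0.00974, adjusted p = 0.898, and 0.70 without induced mutant A). For 3′ end processing 27 of 28 genes were tested. CPSF3L, a subunit of the Integrator complex related to the histone cutting enzyme, had a conversion difference of -0.40 (SE 0.12, limma adjusted p = 0.589) and MBLAC1, a nuclease for histone pre-mRNA, an all-read difference of -0.66 between the induced groups (SE 0.23, limma adjusted p = 1.00). For CPSF3L this was induced mutant against vehicle. Without induced mutant A these 2 differences were -0.33 and -0.58.

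For export, translation and decay 29 of 29 genes were tested. MIF4GD, the SLBP partner in histone translation, had a conversion difference of -0.42 in induced mutant against vehicle (SE 0.17, limma adjusted p = 0.677, and -0.26 without induced mutant A), and the exosome cofactor SKIV2L2 one of -0.37 in induced wild type against vehicle (SE 0.16, limma adjusted p = 0.946). SLBP itself had 40.0 ± 10.8 CPM (SD, n = 3) with vehicle, 42.3 ± 9.85 CPM (SD, n = 3) in induced wild type, and 46.4 and 37.8 CPM in the induced mutant. For poly(A) sites and tails 11 of 11 were tested. PABPC1, the main cytoplasmic poly(A)-binding protein, had 693, 785 and 690 CPM with vehicle, 683, 645 and 665 CPM in induced wild type, and 513 and 555 CPM in the induced mutant. Both mutant libraries lay below all vehicle libraries, as for 11.5% of all genes, and it did not pass in that comparison (limma difference -0.43, SE 0.18, adjusted p = 1.00, and -0.38 without induced mutant A). The 20 S phase genes were all tested. Over these lists the median all-read difference of induced mutant against vehicle was 0.10 for transcription, -0.07 for 3′ end processing, 0.02 for export and decay, -0.17 for poly(A) and 0.03 for S phase, beside -0.04 over all genes. Without induced mutant A these medians were, in the same order, -0.08, -0.04, -0.09, -0.28 and 0.01, beside -0.10. Of 18 replication-independent histone variants, 9 reached the level tested. H1FX stood at 103, 88.2 and 86.6 CPM with vehicle, 88.2, 91.0 and 63.5 CPM in induced wild type, and 54.2 and 65.3 CPM in the induced mutant, below every vehicle library, again as for 11.5% of all genes (limma difference from vehicle -0.62, SE 0.22, adjusted p = 1.00, and -0.49 without induced mutant A). The median difference of the 9 from vehicle was -0.17, and -0.12 without induced mutant A, while HIST1H1B, HIST1H1E and HIST1H1C of the same H1 family had 0.66, 0.71 and 0.10.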

How the data were processed

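All-read values were deposited by the authors as a signal per RefSeq transcript, named CPM per the file headers. In each library 100% of values were whole multiples of a single step within 0.1 read, and reads were recovered from it. The conversion columns are a fraction per transcript, per the file headers. Of values from a single read 41.9% lay between 0 and 1, so bases and not reads are counted. Converted reads were deposited as FPKM and used for presence only. The genome build was hg19 (GRCh37) per the submitters' processing notes. The aligner, the conversion caller and the strand setting of the counting were not given in the sources used here. A gene took its row with the highest mean CPM. Members, gene lists and tests were chosen with earlier results of these data known, and the tailless RNA set, the summed-CPM ratios, the minimum on the other 7 libraries and the lists without induced mutant A after seeing them.

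Tests used limma 3.58.1 (R 4.3.3) with all 8 libraries and no covariate, checked on simulated data, and called genes at an adjusted p below 0.05. edgeR 4.0.16 and DESeq2 1.42.0 were alternatives. Named genes were HMGN1, genes with 20 reads in every library, the 3 largest differences in each direction, the 3 highest and lowest conversions, and up to 4 list genes with the smallest p, of which some are given and 1 is not reported here. Per-library values of further genes were chosen after they were seen. The labels call the replicates biological without naming separate cultures, so p-values measure the spread between these libraries. Intervals of low counts cover counting error only. GENCODE 29 and RefSeq GRCh38.p14 served for names, lengths and sequences, with no coordinates of the files. All 72 genes matched RefSeq.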

Additional observations from a re-analysis of the deposited data

How the results depend on the processing

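In each of the 3 all-read comparisons 0 histone genes were called under every alternative run: another pseudocount, other filters, 2 groups alone, median centring, summed rows, edgeR, DESeq2, the replicate block and leaving out each library (0 to 0). In the 3 conversion comparisons 0 were called with another pseudocount, 10 or 50 reads, no centring, 2 groups alone, the replicate block and each library left out (0 to 0). Among 305 values of single histone genes under these settings, other than left-out libraries, 0 passed and 12 changed sign, each close to 0 and far from the threshold. Over the 285 values with a library left out, 27 changed sign, none of them called. Their ranges in all reads were, for induced mutant against vehicle, -0.021 to 0.19 (HIST1H1C), -0.12 to 0.26 (HIST1H2BD), -0.019 to 0.46 (HIST1H3H), -0.12 to 0.17 (HIST2H2AC) and -0.82 to 0.015 (HIST2H2BC). For the induced groups the range was -0.15 to 0.66 (HIST1H2AC). For induced wild type against vehicle they were -0.19 to 0.064 (HIST1H2BK), -0.10 to 0.40 (HIST1H3D) and -0.047 to 0.10 (HIST2H2BC). In conversion HIST1H1C ranged from -0.41 to 0.38, from -0.40 to 0.40 and from -0.26 to 0.19, and HIST1H2BK from -1.11 to 0.075, from -0.98 to 0.21 and from -0.52 to 0.15, in induced mutant against vehicle, between the induced groups and in induced wild type against vehicle. In induced wild type against vehicle, HIST1H1E was -0.065 with median centring and -0.00076 with DESeq2, and HIST2H2BC -0.093 with median centring, -0.052 with edgeR and -0.070 with DESeq2. In conversion without centring, HIST1H1C was 0.051 in induced mutant against vehicle, -0.074 between the induced groups and 0.12 in induced wild type against vehicle, and HIST1H2BK 0.0096 in the last. Between the induced groups HIST1H1C was -0.0031 with 10 reads and -0.0015 with the 2 groups alone. Replicate letters did not pair the libraries: deviations of same-letter vehicle and induced wild-type libraries correlated at 0.36, -0.45 and 0.74. With the replicate block 0 histone genes were called in each comparison, and HIST2H2AC turned to -0.040 in induced mutant against vehicle.

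With 10 reads in every library 5 histone genes were detected and with 50 reads 1, against 2 at 20 reads, also 2 to 2 with each library left out. The ratio of summed CPM ranged from 1.16 to 2.45 for induced mutant to vehicle, from 1.02 to 2.14 for induced mutant to induced wild type, and from 1.08 to 1.20 for induced wild type to vehicle, with a library left out. Over all genes, DESeq2 called 76 in induced mutant against vehicle, 13 between the induced groups and 2 in induced wild type against vehicle, against 4, 4 and 0. Without induced mutant A limma called 0 in each.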
